A study of Mus musculus with 36 samples.

Results

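Adcy1 and Angptl2 are 2 of the 21418 protein-coding genes annotated on the mouse autosomes, and they are described side by side because methylation near each had differed between dams and sires within inbred mouse strains. The CpGs described are those listed from 10000 bp upstream of each gene to 10000 bp past its end, 1532 at Adcy1 and 598 at Angptl2, of 18887127 on the autosomes. In windows of 500 bp they filled 264 windows at Adcy1 and 103 at Angptl2. Of these, 146 and 66 had 5 or more CpGs and, summed over the window, 30 or more reads in each animal. They entered the tests, of 1456902 such windows on all autosomes. The genes were thus chosen by the measured difference between dams and sires within a strain, so differences of that kind are a description, with no p given, and the calls made on them only mark the windows described.

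Methylation was measured by whole-genome bisulfite sequencing of liver DNA from 24 mice, in 8 groups of 3 animals. The parents came from inbred C57BL/6N mice, called B6, and inbred C3H/HeN mice, called C3. B6 dams and C3 sires gave B6C3F1 sons and daughters, and C3 dams and B6 sires gave C3B6F1 sons and daughters. Parents were mated at 10 weeks, weaning was at week 16 and all animals were killed at 20 weeks, so the dams had carried and nursed pups while the daughters were virgins. No animal was treated or genetically modified. Dams and daughters therefore differed in reproductive history and also in being inbred or hybrid, which cannot be told apart in the comparison between them. Whole liver was used, in which a change in the share of a cell type and a change in methylation within cells cannot be told apart.

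Adcy1 encodes a membrane-bound adenylyl cyclase, an enzyme that makes the second messenger cAMP and that calcium and calmodulin stimulate. It is best known from neurons, and in liver cAMP carries the glucagon signal that raises glucose output. Angptl2 encodes a secreted glycoprotein of the angiopoietin-like family, which acts on blood vessels and in inflammation. Methylated CpGs are the usual state of mammalian DNA outside of active promoters and enhancers, and stretches of low methylation within a gene body often mark regulatory elements.

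Adcy1 (ENSMUSG00000020431.5) lies on the plus strand of chromosome 11, at chr11:6963492-7078509 of mm9, and its longest transcript has 20 exons. Angptl2 (ENSMUSG00000004105.6) lies on the plus strand of chromosome 2, at chr2:33071589-33103237, with 5 exons. It sits inside intron 8 of Ralgps1, a gene for a guanine nucleotide exchange factor that is transcribed from the opposite strand over chr2:32988941-33227006. A CpG in Angptl2 is therefore also a CpG of the Ralgps1 gene body.

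The following 3 sequences carry the main differences and are shown for that reason, from mm9 on the plus strand with the listed CpGs in capitals. The first, chr11:7050647-7050946, spans exon 14 of Adcy1 with the end of intron 13 and the start of intron 14. It holds 8 listed CpGs, which were lower in dams than in sires. The second, chr2:33084001-33084300, is coding sequence of Angptl2 exon 2 with 13 listed CpGs, of which the first 3 stayed mostly methylated in dams, the last 3 were low in every group and the 7 between were low in dams. The third, chr11:7005254-7005553, lies in intron 3 of Adcy1 with 8 listed CpGs. It falls in neighbouring windows that were higher in dams than in sires and higher in daughters than in sons.
Adcy1 exon 14: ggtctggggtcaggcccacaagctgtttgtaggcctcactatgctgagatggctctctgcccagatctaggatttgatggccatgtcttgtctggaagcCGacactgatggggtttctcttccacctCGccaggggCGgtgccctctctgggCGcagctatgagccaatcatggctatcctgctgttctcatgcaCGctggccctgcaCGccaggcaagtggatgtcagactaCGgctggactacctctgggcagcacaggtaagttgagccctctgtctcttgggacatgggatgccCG
Angptl2 exon 2: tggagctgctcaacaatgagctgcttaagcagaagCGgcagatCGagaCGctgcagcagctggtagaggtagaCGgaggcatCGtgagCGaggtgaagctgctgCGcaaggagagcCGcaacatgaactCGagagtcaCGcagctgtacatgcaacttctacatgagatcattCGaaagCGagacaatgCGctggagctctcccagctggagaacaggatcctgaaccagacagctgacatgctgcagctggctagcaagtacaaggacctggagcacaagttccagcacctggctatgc
Adcy1 intron 3: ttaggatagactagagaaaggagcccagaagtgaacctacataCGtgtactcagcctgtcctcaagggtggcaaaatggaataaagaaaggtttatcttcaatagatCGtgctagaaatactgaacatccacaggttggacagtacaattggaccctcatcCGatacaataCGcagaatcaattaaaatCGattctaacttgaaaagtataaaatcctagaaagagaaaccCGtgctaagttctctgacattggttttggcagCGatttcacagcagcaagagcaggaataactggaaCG

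Over the whole Adcy1 interval the methylation level, the share of methylated reads among all reads, lay between 71.6% and 74.9% in the 24 animals. In Angptl2 it was 78.4% ± 0.795 (SD, n = 3) in B6 sires and 74.6% ± 0.332 in B6 dams. In C3 it was 81.0% ± 0.499 in sires and 76.8% ± 1.096 in dams. The sons' means, 79.4% in B6C3F1 and 79.1% in C3B6F1, and the daughters' means, 78.5% and 78.2%, lay above those of both groups of dams. Reads per CpG ranged over animals from 18.8 to 34.4 in Adcy1 and from 19.5 to 37.7 in Angptl2.

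The start site of Adcy1 was nearly free of methylation in every group. The 68 CpGs of its first 500-bp window in exon 1, chr11:6963501-6964000, had group means from 1.0% to 1.7%, and the window before it had means from 2.6% to 5.1%. The start of Angptl2 was partly methylated instead. Its exon 1 window, chr2:33071501-33072000, had means from 27.4% in C3B6F1 daughters to 46.6% in C3 sires, and the window just upstream had means from 10.6% to 25.5%. No window at either start site was called in any comparison.

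Dams and sires differed inside the genes, far from these start sites. By a rule of at least 20 percentage points and an adjusted p below 0.05 in limma, 3 windows of Adcy1 and 3 of Angptl2 were lower in B6 dams than in B6 sires, and none was higher. Of all windows on the autosomes, 0.038% were lower and 0.0616% higher by that rule in B6. In C3, 5 windows of Adcy1 and 5 of Angptl2 were lower in dams and none was higher, where 0.0542% of all windows were lower and 0.0999% higher. Since this contrast chose the genes, nothing is read from these shares. Neighbouring called windows, joined across a gap of at most 1 window, formed 3 regions in Adcy1 and 2 in Angptl2.

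**Figure D1:**
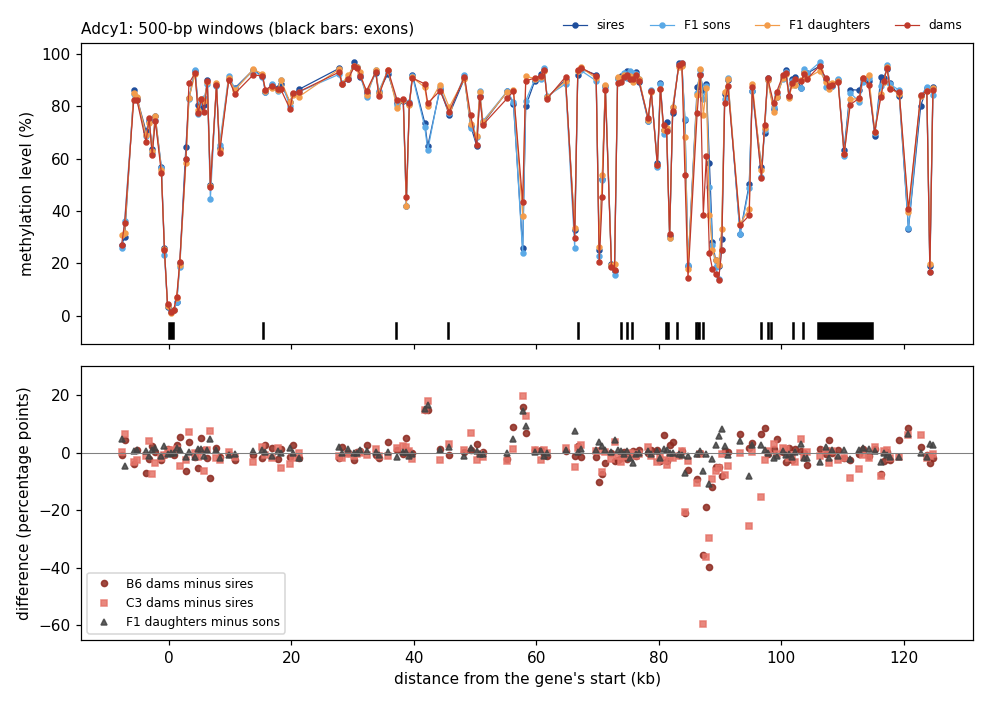
Methylation along Adcy1 in the 146 tested 500-bp windows, by distance of the window's centre from the gene's start in kb. The upper panel gives the mean level of sires, dams, F1 sons and F1 daughters in percent with exons as black bars, and the lower panel gives differences in percentage points, where dams lay lowest near exon 14 and both dams and daughters lay above males in 2 intronic places.

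The strongest difference in Adcy1 lay over exon 14 and the start of intron 14, at chr11:7050501-7052000 with 23 CpGs. The window that holds exon 14, chr11:7050501-7051000, had levels of 88.4, 84.9 and 89.5% in the 3 B6 sires and 56.2, 43.7 and 56.5% in the 3 B6 dams. In C3 it had 82.5, 86.0 and 84.8% in the sires and 26.0, 24.9 and 24.3% in the dams. Every dam thus lay below every sire in both strains, with a difference of 35.5 points in B6 and 59.3 points in C3. The F1 animals stayed near the sires. The sons had 74.9, 89.4 and 88.8% in B6C3F1 and 75.5, 83.6 and 85.2% in C3B6F1. The daughters had 80.1, 73.1 and 76.5% in B6C3F1 and 71.2, 76.3 and 82.5% in C3B6F1.

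The neighbouring windows of intron 14 differed less evenly. In chr11:7051001-7051500 the C3 dams spread widely, at 64.1, 28.1 and 58.9% against 90.1, 83.9 and 86.2% in C3 sires. B6 dams there were at 71.6% ± 2.3 and B6 sires at 90.5% ± 1.3, a difference of 18.9 points that lay just under the minimum. In chr11:7051501-7052000 the means of the sires lay apart, at 68.1% ± 8.5 in B6 and 48.7% ± 2.8 in C3. C3 minus B6 in sires was -19.4 points, under the minimum. It failed adjustment without B6 sire 1 (-17.8 points), B6 sire 3 (-16.1 points) or C3 sire 2 (-17.8 points). The dams were at 28.4% ± 1.3 in B6 and 19.1% ± 3.6 in C3. The daughters' means lay between those of dams and sires there, at 36.6% ± 4.7 in B6C3F1 and 40.02% ± 8.02 in C3B6F1, and the sons were at 51.2% ± 10.4 and 47.4% ± 7.6.

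The other regions of Adcy1 each held 1 window. In intron 11, chr11:7047501-7048000 with 9 CpGs, B6 sires had 76.2, 74.0 and 76.1% and B6 dams 56.1, 56.5 and 50.7%. C3 sires had 74.1, 72.2 and 74.9% and C3 dams 47.6, 50.2 and 61.1%. The groups did not overlap within either strain, and the means lay 21.0 points lower in B6 dams and 20.7 points lower in C3 dams. The region further down intron 14, chr11:7058001-7058500 with 5 CpGs, was called in C3 only, at 31.3% ± 7.0 in C3 dams against 56.8% ± 1.9 in C3 sires. B6 dams there, at 45.2% ± 6.4, overlapped B6 sires at 43.6% ± 1.0. In limma no window of either gene had a dam minus sire difference that itself differed between strains at an adjusted p below 0.05. The share of all windows is not given for this comparison, so the strains are not taken to be alike from it. In the downstream region dams minus sires was 1.60 points in B6 and -25.5 points in C3.

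In Angptl2 the main region covered exon 2, the exon with the start codon, and both its flanks, at chr2:33083501-33086500 with 50 CpGs. Over the region B6 sires had 66.0, 71.0 and 67.6% and B6 dams 40.8, 38.7 and 41.5%. C3 sires had 71.3, 71.1 and 70.3% and C3 dams 37.9, 42.6 and 37.8%. Dams of both strains lay in a narrow band, and every dam was more than 20 points below every sire. Sons had 71.9, 70.9 and 69.3% in B6C3F1 and 71.0, 70.5 and 66.1% in C3B6F1. Daughters had 65.8, 63.7 and 61.4% in B6C3F1 and 64.01, 67.5 and 71.4% in C3B6F1.

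Within this region the window with the widest difference in C3, chr2:33083501-33084000, crossed the boundary of intron 1 and exon 2. It had 90.3, 91.1 and 89.2% in B6 sires against 59.7, 57.9 and 57.0% in B6 dams. It had 90.9, 93.9 and 92.4% in C3 sires against 46.3, 51.0 and 49.8% in C3 dams. All 12 F1 animals lay between 87.7% and 94.2% there, close to the sires and apart from the dams. In the following window, chr2:33084001-33084500, the dams' means were 33.2% in B6 and 29.2% in C3 against 68.1% and 66.3% in sires, and the difference in B6 was widest there, at 34.9 points against 32.0 points in the window before. The F1 daughters there lay lower than the sires, at 55.7% ± 2.4 in B6C3F1 and 62.3% ± 6.1 in C3B6F1.

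The second region of Angptl2 was a single window in intron 2, chr2:33089501-33090000 with 6 CpGs. B6 sires had 41.6, 38.0 and 46.2% and B6 dams 29.4, 31.5 and 24.6%. C3 sires had 38.2, 43.1 and 42.5% and C3 dams 20.3, 20.7 and 20.1%. The difference passed the minimum in C3, at 20.9 points, and fell short of it in B6, at 13.4 points. The called window nearest to the minimum was chr2:33085001-33085500, lower by 20.3 points in C3 dams, and just outside lay chr11:7021001-7021500 of Adcy1, higher by 19.6 points in C3 dams, and chr11:7051001-7051500, lower by 18.9 points in B6 dams.

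**Figure D2:**
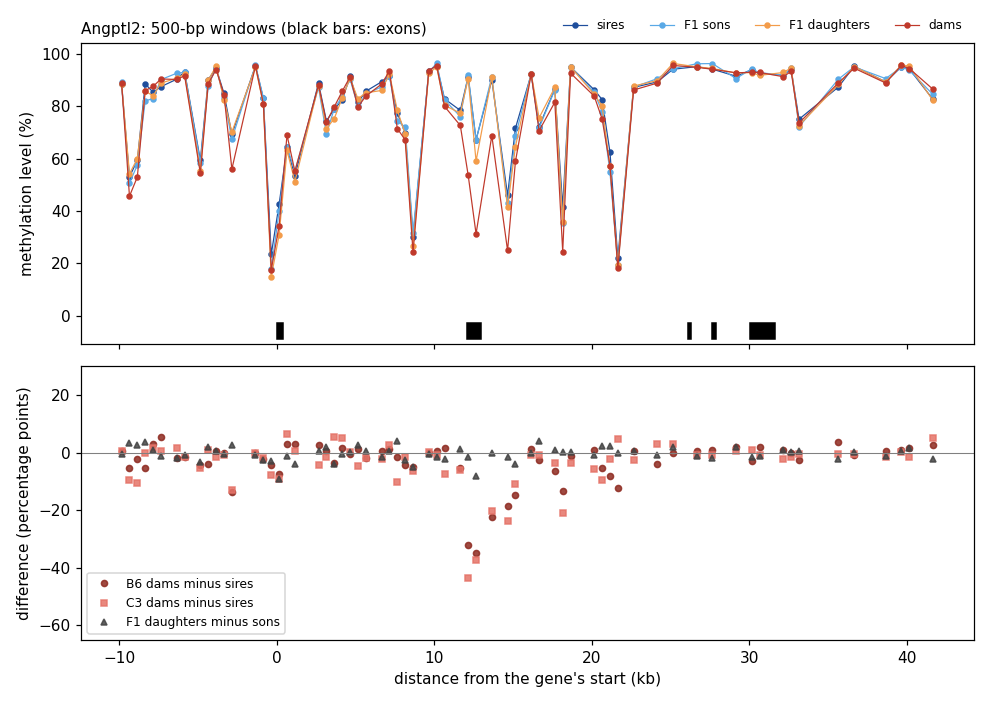
Methylation along Angptl2 in the 66 tested 500-bp windows, by distance of the window's centre from the gene's start in kb. The upper panel gives the mean level of sires, dams, F1 sons and F1 daughters in percent with exons as black bars, and the lower panel gives differences in percentage points, in which the lowest dam minus sire values surround exon 2 while daughters minus sons stay between -8.99 and 4.17.

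**Figure D3:**
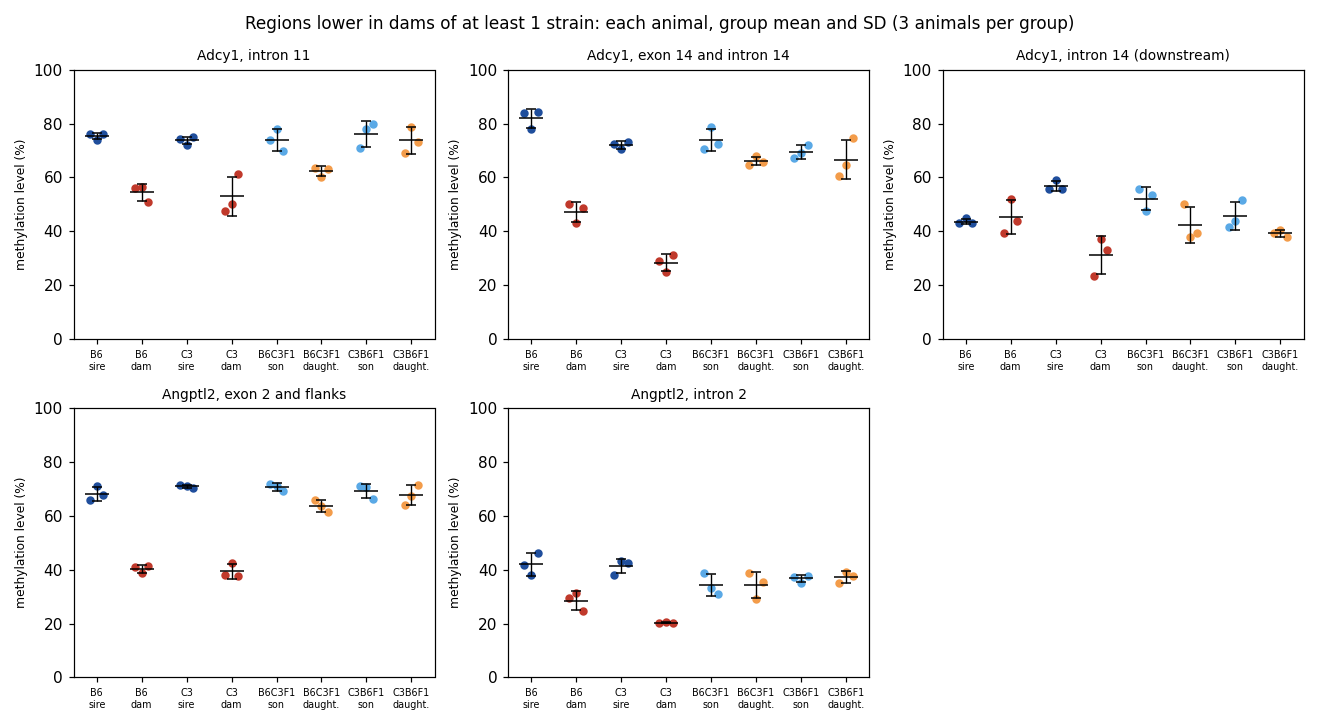
Methylation level in percent of each of the 24 animals (points) over the 5 regions lower in dams of at least 1 strain, with the group mean (bar) and SD (whiskers) of 3 animals. Dams lie below sires in both strains in 4 of the regions. In the downstream intron 14 region of Adcy1 their mean is lower than that of sires in C3 alone. C3 minus B6 was -13.9 points in dams there. The dam minus sire difference itself did not differ between the strains at an adjusted p below 0.05 in limma.

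Single CpGs, with the reads of the animals of a group summed, showed how the dams' low level was laid out. In the exon 14 region of Adcy1, dams of the pooled strains lay below sires at 23 of 23 CpGs, by at least 20 points at 19 and by at least 40 points at 11. Each single dam lay below each single sire at 15 of the 23. The widest difference was at chr11:7050880, inside exon 14, where B6 sires had 97.1% and B6 dams 46.7%. C3 sires had 92.6% there and C3 dams 15.2%, while F1 sons had 92.8% and F1 daughters 84.2%. In the intron 11 region dams were lower at 8 of 9 CpGs, and the remaining CpG, chr11:7047513, had between 90.7% and 94.3% in every group.

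In Angptl2 exon 2 the low level of the dams bordered a stretch that was low in every group. From chr2:33084174 to chr2:33084402, 7 neighbouring CpGs had 21.0% to 40.8% in sires of either strain and 13.9% to 19.8% in dams. Just upstream of it the sires were highly methylated and the dams were not. At chr2:33084105 B6 sires had 96.6% and B6 dams 22.1%, and C3 sires had 96.2% and C3 dams 18.2%, the widest difference of the 50 CpGs. Further upstream, at chr2:33084036, the dams had 82.5% in B6 and 74.4% in C3. Beyond it the dams were low again, at chr2:33083982 with 17.1% in B6 and 26.8% in C3, against 78.5% and 86.7% in sires. Downstream of the low stretch, at chr2:33084429, dams had 46.9% in B6 and 38.5% in C3, and sires 95.5% and 93.3%. With the strains pooled, dams lay below sires at 49 of 50 CpGs, by at least 20 points at 31 and by at least 40 points at 17. Each single dam lay below each single sire at 30 of the 50.

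At that upstream border daughters and sons differed most, at 3 CpGs. They were chr2:33084117, chr2:33084130 and chr2:33084139, where F1 sons had 89.6, 70.4 and 62.6% and F1 daughters 66.7, 38.8 and 38.6%. Summed over these 3 CpGs, B6C3F1 sons had 72.5, 82.1 and 75.0% and B6C3F1 daughters 45.6, 42.6 and 47.97%. C3B6F1 sons had 73.5, 70.0 and 73.5% and C3B6F1 daughters 50.5, 47.6 and 56.7%. All 6 daughters lay below all 6 sons, and between the sires, at 80.2% ± 3.7 in B6 and 76.4% ± 5.9 in C3, and the dams, at 18.1% ± 9.1 and 16.9% ± 7.3. These 3 CpGs were picked because daughters were at least 20 points below sons in the summed reads, from 34 to 132 reads per F1 animal, so their values are a description.

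**Figure D4:**
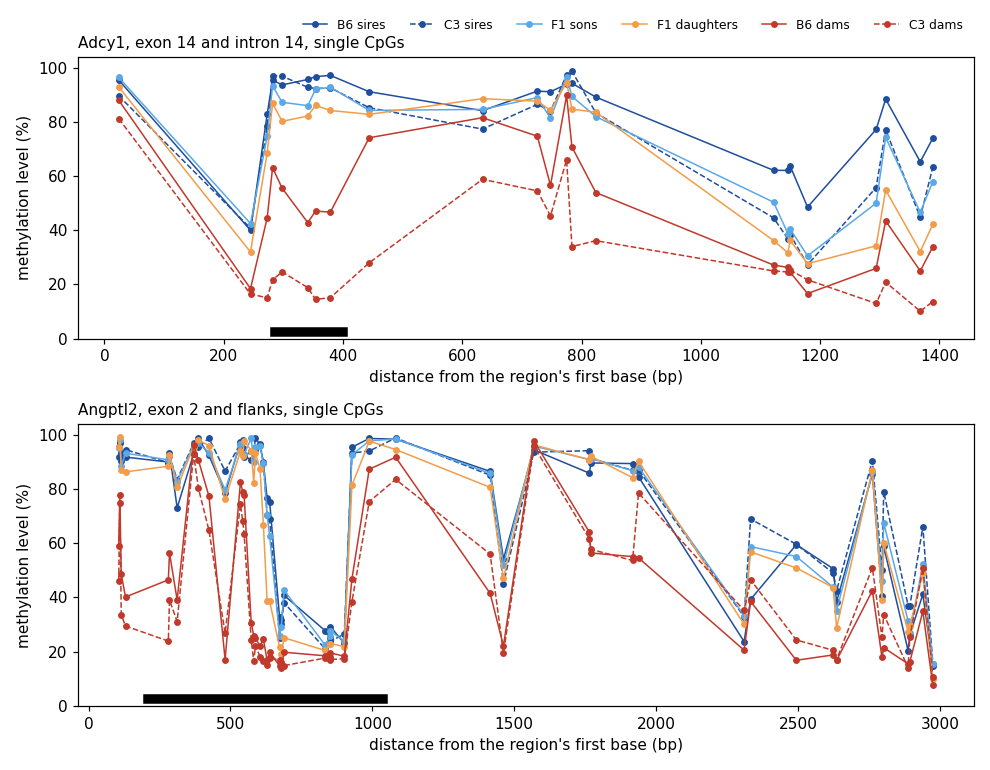
Methylation level in percent of single CpGs across the exon 14 region of Adcy1 and the exon 2 region of Angptl2, by distance in bp from the region's first base, for B6 and C3 sires and dams and for F1 sons and daughters, with exons as black bars. In exon 2 of Angptl2 all groups share a low stretch. The dams' low level extends upstream of it, with daughters lying between at that border, and recurs at other CpGs on both sides.

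The F1 animals gave a comparison of the sexes that the choice of genes had not used. Daughters minus sons lay between -8.00 and 0.34 points over the 5 regions, and no region passed adjustment. The exon 14 region of Adcy1 had 66.3% ± 4.7 in 6 daughters and 71.7% ± 4.0 in 6 sons, 5.36 points lower in daughters (two-sided exact permutation test, p = 0.0584). The exon 2 region of Angptl2 had 65.6% ± 3.5 and 69.9% ± 2.1, 4.31 points lower in daughters (exact permutation p = 0.0368). Intron 11 of Adcy1 was lower by 7.01 points and its downstream intron 14 region by 8.00 points (exact permutation p = 0.0714 and 0.0260), and intron 2 of Angptl2 was 0.34 points higher in daughters (p = 0.866 in the same exact test). In each region the ranges of daughters and sons overlapped. After Benjamini-Hochberg adjustment over the 10 region tests made, of sexes and of crosses, the smallest p was 0.147. With the mean of CpGs in place of summed reads, the adjusted p came close to 0.05 in 3 regions (exact permutation test). It was 0.0541 at exon 14 and at exon 2, and 0.0649 downstream in intron 14. It was 0.147 in intron 11 and 0.808 in intron 2 of Angptl2. The smallest raw p that 6 animals against 6 allow is 0.00216.

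Within the crosses, the 3 daughters of B6C3F1 lay below the 3 sons in the exon 14 and intron 11 regions of Adcy1 and in the exon 2 region of Angptl2, each with an exact permutation p of 0.1, the smallest that 3 against 3 allow. In C3B6F1 the ranges overlapped in all of these, and the difference was 2.90, 2.52 and 1.58 points in the same direction. In the downstream intron 14 region, also lower in daughters of both crosses, it was in C3B6F1 that the 3 daughters lay below the 3 sons (6.37 points lower, exact permutation p = 0.1) while the ranges overlapped in B6C3F1 (9.62 points lower, exact permutation p = 0.2). In limma no window of either gene had a different sex effect in the crosses at an adjusted p below 0.05 (as 1 of all 1456902 windows did, or 6.86e-05%), with 7 and 4 windows at an unadjusted p below 0.05 against 4.87% of all. C3B6F1 daughter 3 was high among daughters, at 74.5% in the exon 14 region and 71.4% in the exon 2 region. Without it daughters were lower by 7.01 and 5.45 points, and the adjusted p was 0.0433 in both (exact permutation test). This animal was singled out for its high values, so a smaller p follows from the choice. Without any other single F1 animal neither region passed adjustment.

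Across the windows, limma found none called between daughters and sons by the rule of at least 20 points at either gene, where 0.051% of all windows were called. At an unadjusted p below 0.05 there were 18 of 146 windows in Adcy1 and 7 of 66 in Angptl2, where 7.02% of all windows had such a p. At an adjusted p below 0.05 of any size there were 4 windows in Adcy1, all higher in daughters, and 0 in Angptl2. Of all windows on the autosomes 0.292% were higher in daughters in this way and 0.0518% lower.

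The 4 windows formed 2 pairs of neighbours in introns, away from the regions that were low in dams. In intron 3, chr11:7005001-7005500 with 10 CpGs had 71.8, 77.2 and 69.3% in B6C3F1 sons and 88.1, 88.2 and 86.7% in B6C3F1 daughters. It had 75.1, 74.0 and 66.0% in C3B6F1 sons and 84.3, 91.3 and 84.9% in C3B6F1 daughters. Each daughter was above each son, with a mean difference of 15.03 points (limma, adjusted p = 7.74e-05). The next window, chr11:7005501-7006000 with 6 CpGs, was higher by 16.7 points in daughters (limma, adjusted p = 2.47e-05), at 79.0% ± 1.2 and 80.9% ± 2.1 against 62.6% ± 2.8 and 63.9% ± 5.4 in sons.

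The pair in intron 4 had 7 CpGs in each window. In chr11:7021001-7021500 the B6C3F1 sons had 20.3, 19.7 and 22.1% and the daughters 35.7, 34.9 and 39.2%. The C3B6F1 sons had 30.6, 21.6 and 28.1% and the daughters 38.1, 45.8 and 34.6%. Daughters were higher by 14.3 points (limma, adjusted p = 0.00171) with no overlap of the sexes. The neighbour, chr11:7021501-7022000, was highly methylated in both sexes and 9.39 points higher in daughters (limma, adjusted p = 0.000553).

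The parents were ordered as the F1 animals at these 4 windows. In chr11:7005001-7005500 sires had 74.2% ± 2.4 in B6 and 73.3% ± 8.4 in C3, and dams 89.0% ± 2.7 and 88.1% ± 1.2. In chr11:7021001-7021500 sires had 27.0% ± 7.5 and 24.3% ± 3.0, and dams 42.8% ± 2.4 and 44.0% ± 2.0. Dams and daughters were thus both above males in these intronic windows, while in 4 of the 5 regions above, dams were low and daughters nearer to sons than to dams. This holds for the mean of both crosses, since in the intron 11 region the B6C3F1 daughters, at 62.4%, lay closer to the dams, at 53.7%, than to the B6C3F1 sons, at 73.9%. The exception was the downstream intron 14 region, with 38.3% in dams, 40.9% in daughters, 48.9% in sons and 50.2% in sires. With windows shifted by 250 bp the intron 3 site had a difference of 22.9 points between daughters and sons at chr11:7005251-7005750 and passed the 20-point minimum (limma, adjusted p = 1.51e-07). No SNV between the strains lay in the intron 3 windows.

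**Figure D5:**
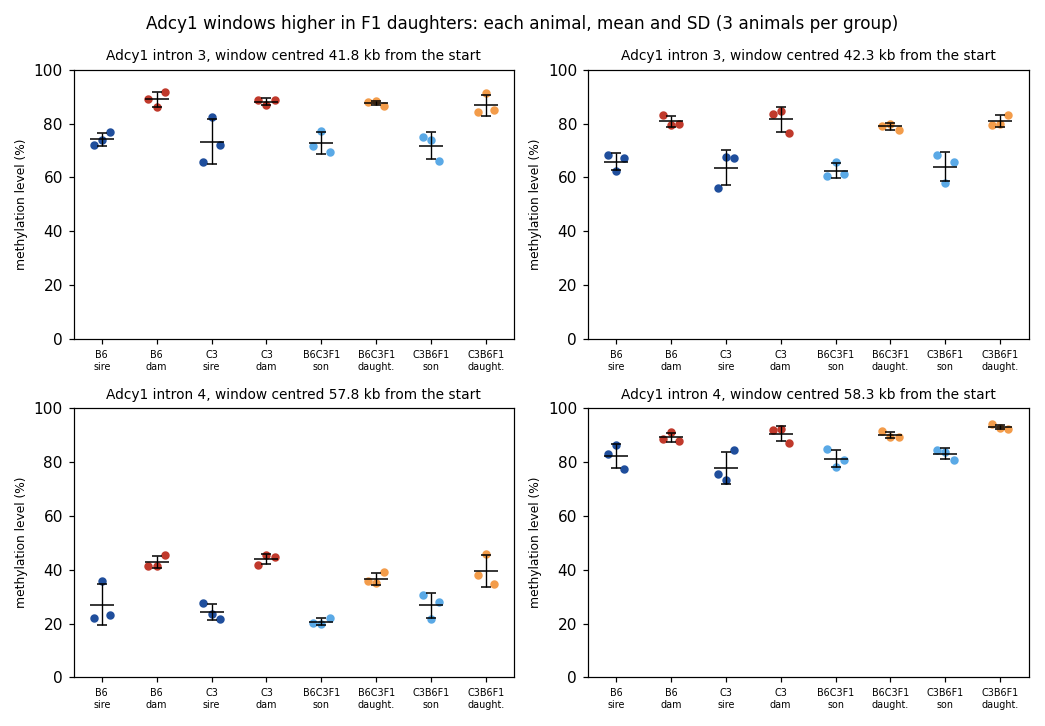
Methylation level in percent of each of the 24 animals (points) in the 4 windows of Adcy1 introns 3 and 4 that were higher in F1 daughters than in F1 sons, with the group mean (bar) and SD (whiskers) of 3 animals. Daughters lie above sons in both crosses, by 15.03, 16.7, 14.3 and 9.39 points.

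Dams were also set against their daughters' generation, which shares the dams with the contrast that chose the genes, so the counts and values are a description. Dams were lower than virgin daughters by at least 20 points at an adjusted p below 0.05 in 2 windows of Adcy1 and 3 of Angptl2, and higher in none, where 0.019% of all windows were lower and 0.000755% higher. These were the exon 14 window of Adcy1 (lower by 38.0 points) with its neighbour chr11:7051001-7051500 (26.0 points), and at Angptl2 the windows from chr2:33083501 (36.8 points), chr2:33084001 (27.8 points) and chr2:33085001 (22.4 points). Without the size minimum there were 4 windows in Adcy1 and 6 in Angptl2, all lower in dams, against 0.149% of all windows. One of these lay upstream of Angptl2, chr2:33068501-33069000, where dams had 58.1% ± 3.6 in B6 and 53.8% ± 3.7 in C3 and daughters 69.1% ± 6.0 in B6C3F1 and 71.2% ± 5.5 in C3B6F1.

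Sires and sons gave 0 windows at any size at an adjusted p below 0.05 in limma, with 13 of 146 windows of Adcy1 and 7 of 66 of Angptl2 at an unadjusted p below 0.05. Of all windows 6.26% had an unadjusted p below 0.05, 0.0143% had an adjusted p below 0.05 and 0.00227% were called by the rule. Their differences at the 2 loci lay between -6.32 and 9.07 points. The same regions had 77.0% ± 6.0 in 6 sires and 71.7% ± 4.0 in 6 sons at exon 14 of Adcy1, and 69.6% ± 2.2 and 69.9% ± 2.1 at exon 2 of Angptl2. The sires here are those of the choosing contrast.

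Strain was compared within each sex of the parents. In sires no window of either gene was called by the rule of 20 points, where 0.548% of all windows were, and in dams 3 windows of Adcy1 and 0 of Angptl2 were called, where 0.536% were. At an unadjusted p below 0.05 there were 25 and 12 windows in sires and 27 and 14 in dams, where 14.4% and 12.7% of all windows had such a p. Of the called windows 2 were those of exon 14 and its neighbour, lower in C3 dams than in B6 dams by 27.0 and 21.2 points, in the region that the dams themselves had chosen. The third was chr11:6970001-6970500 in intron 1, with 59.3% ± 1.8 in C3 dams and 38.9% ± 4.8 in B6 dams (limma, adjusted p = 0.0110). Sires there had 51.7% ± 7.1 and 47.8% ± 7.9. Without B6 dam 2 the count over both sexes was 1 window in place of 3, and the intron 1 difference was 17.7 points (limma, adjusted p = 0.0956). Without C3 dam 3 the intron 1 difference was 19.4 points (limma, adjusted p = 0.0546). The call in the neighbour of the exon 14 window was also lost without any 1 of the B6 dams. Without C3 dam 2 the difference in that neighbour was -10.1 points in place of -21.2, and it was not called. The dams are those of the choosing contrast, so the values in that region are a description.

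Upstream of Adcy1 and just inside Angptl2 the strains differed in both sexes by less than 20 points. In chr11:6956001-6956500 C3 was higher by 14.5 points in sires and by 16.6 points in dams (limma, adjusted p = 0.0101 and 0.00849), but the difference lost significance in sires without B6 sire 3 (11.7 points, adjusted p = 0.119) or C3 sire 3 (12.9 points, adjusted p = 0.0637), and in dams without C3 dam 2 (13.6 points, adjusted p = 0.0830). In intron 1 of Angptl2, chr2:33072001-33072500 was higher in C3 by 13.2 points in sires and 16.8 points in dams, and chr2:33072501-33073000 by 15.5 and 13.1 points (limma, adjusted p from 0.00186 to 0.0344). Without B6 sire 1 the first of these was 8.28 points in sires, and without B6 dam 2 the second was 8.10 points in dams (limma, adjusted p = 0.283 and 0.333). In sires the first also failed adjustment without C3 sire 1, 2 or 3 (limma, adjusted p = 0.0724, 0.133 and 0.0676). The second failed in sires without C3 sire 3 (limma, adjusted p = 0.0519). In dams it failed without C3 dam 1 or 2 (limma, adjusted p = 0.0581 and 0.226). The Angptl2 interval held 0 SNVs of the deposited list and the Adcy1 interval 289. The SNV closest to the exon 2 region of Angptl2 was 439039 bp away, so these differences between strains lay in an interval in which the list gives no base that differs between the strains. In the exon 14 region of Adcy1, 4 SNVs lay inside and 4 of the 23 CpGs had an SNV within 10 bp.

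The reciprocal crosses, which carry the same autosomes with the parents of origin exchanged, showed no detectable difference at either gene. No window reached an adjusted p below 0.05 in limma, where 0.00192% of all windows did and 0.000686% were called by the rule, and 13 and 7 windows had an unadjusted p below 0.05, against 6.69% of all windows. Over the 5 regions B6C3F1 and C3B6F1 differed by -6.89 to 4.91 points, with exact permutation p from 0.0736 to 0.556 (n = 6).

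Short sequence motifs were counted on both strands in the windows as a description. The E-box core CANNTG was in the exon 14 window of Adcy1 3 times and in the exon 2 window chr2:33084001-33084500 of Angptl2 6 times, but 93.8% of all tested windows hold it. The E-box form CAGCTG, which is its own reverse complement and one case of CANNTG, was in 3 of the 10 windows called between dams and sires and in 22.6% of all windows. These 3 were that exon 2 window with 5 matches, chr2:33086001-33086500 with 2 and the intron 11 window of Adcy1 with 1. The STAT motif TTCNNNGAA, the forkhead motif TGTTTAC and the cAMP response element TGACGTCA had no match in the 10 windows called between dams and sires, and 15.7%, 7.05% and 0.568% of all windows hold them.

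Related genes were described from lists of genes, by the windows within the same distance of each gene. The other 9 adenylyl cyclase genes had 1002 tested windows, of which none differed between dams and sires by the rule in B6 and 2 were higher in C3 dams. These 2 were 0.2% of the windows, against 0.0999% of all windows higher in C3 dams. Both were at Adcy9, a cyclase made in many tissues, which also had the only window called between daughters and sons, higher in daughters (0.0998% of the windows, against 0.051% of all). Of the 4 genes listed as partners of Angptl2, Pirb was not found and is not described. The 3 found, the integrin subunit genes Itga5 and Itgb1 and the leukocyte receptor gene Lilrb4, had 63 windows. None of these was called in either comparison. The shares of all windows were 0.0997% between dams and sires in B6, 0.154% in C3 and 0.051% between daughters and sons.

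Of 14 genes of cAMP signalling in liver, with 2125 windows, 5 were called between dams and sires in B6 and 11 in C3, in both directions. The glucagon receptor gene Gcgr had 3 windows higher in B6 dams and 5 in C3 dams, and 1 higher in daughters than in sons, the list's only such window (0.0471% of its windows, against 0.051% of all). Rapgef4, a cAMP-activated exchange factor, had 1 and 2 windows higher in dams, in B6 and C3. Of the phosphodiesterase genes, whose enzymes break down cAMP, Pde4d had 1 window lower in B6 dams and 3 in C3 dams, and Pde4b 1 lower in C3 dams. The share called was 0.235% in B6 and 0.518% in C3, against 0.0997% and 0.154% of all windows in either direction. The median difference over the list was -0.34 points in B6 and -0.39 points in C3, against -0.45 and -0.55 points over all windows.

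Windows elsewhere in the genome with a pattern like these were ranked by Pearson's r over the 8 group means, among windows that spanned at least 20 points and lay more than 1 Mb away. Against the exon 14 window of Adcy1, 18062 windows were compared and 105 had an r above 0.95. The highest 5 had the start sites of Nedd9, Cbfa2t3, Samm50, Etv6 and Hivep2 as the nearest, at 913 to 99565 bp, with r from 0.990 to 0.994. The Etv6 window, chr6:134261001-134261500, had 95.5% in B6 sires, 61.4% in B6 dams, 85.6% in C3 sires and 43.5% in C3 dams. Against the Angptl2 window chr2:33083501-33084000, 18063 were compared and 187 had an r above 0.95, and for the highest 5 the nearest start sites were those of Stk24, Elmo1, Lilra5, Cited2 and Prlr, the prolactin receptor gene, at 7009 to 497784 bp, with r from 0.993 to 0.994. The 8 points of each r are means of the same animals, and the ranking is a description.

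Over the autosomes the 24 animals had 19.4 to 32.8 reads per CpG. Methylation was 76.6% to 77.3% in sires, 75.0% to 77.1% in dams, 76.3% to 77.5% in sons and 75.9% to 76.9% in daughters. Around the start sites of 6 hepatocyte marker genes (Alb, Ttr, Apoa1, Serpina1a, Tat and Cps1) the level was low in all animals, at 23.2% to 34.7% in sires, 22.7% to 29.2% in dams, 24.05% to 29.99% in sons and 19.8% to 34.8% in daughters. It was 84.6% to 90.1% for the 4 Kupffer cell markers found of 6, 36.7% to 47.3% for 4 endothelial, 5.63% to 9.36% for 3 stellate and 10.99% to 18.3% for 2 cholangiocyte markers. Per gene, dams minus sires lay between -6.07 points at Serpina1a and 1.79 points at Ttr in the hepatocyte list, with 4 of 6 genes lower in dams. The Kupffer cell, endothelial, stellate and cholangiocyte genes lay between -1.56 points at Emr1, a Kupffer cell marker, and 3.06 points at Epcam, a cholangiocyte marker, and the 4 endothelial genes between -0.28 and 0.34 points. The part of cell composition in the results at Adcy1 and Angptl2 was not tested.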

How the data were processed

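Liver DNA of 24 mice was bisulfite sequenced. For every CpG and animal the authors deposited a count of methylated reads and one of unmethylated reads, with both strands together and no normalization, and a list of SNVs with the base of each strain. Per the submitters' processing notes, reads were aligned to mm9 with Bismark 0.7.8 and Bowtie 0.12.8. Duplicates had been removed, and CpGs were kept where mm9 and both strains share them, so CpGs lost in a strain are not measured. All 48 count columns were used. FOXA1 ChIP was not analysed here, and DSS and Metilene, the tools of the study, were not run.

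Counts were summed in fixed windows of 500 bp that had 5 or more CpGs and, in each animal, 30 or more reads. The log2 ratio of methylated to unmethylated counts, with a pseudocount of 1, was fitted with limma 3.58.1 in R 4.3.3 over all 1456902 windows and 24 animals, with a mean for each of the 8 groups and trended, robust variances. P-values were adjusted by Benjamini-Hochberg over all windows, and a call also needed 20 percentage points. Differences in points are between group means of methylation levels. Region levels are shares of summed counts, compared by two-sided exact permutation tests over animals (Python 3.11.15, numpy 2.4.6). Each animal was 1 replicate. No replicates were duplicates, since pairs differed by 1.34 to 1.46 times counting error. The fit was tested on simulated data.

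The genes, regions, gene lists and comparisons were chosen with earlier results of these data known. The results of 2 gene lists are not reported here. Windows were named at start sites, up to 6 per gene for the parental difference and up to 3 per gene and comparison among those called or with the smallest adjusted p. CpG sums and the border CpGs were described after their values were seen. Annotation was GENCODE M1 on mm9, and each listed CpG of the intervals was a CG there. The alternatives were a pseudocount of 5, 100 reads, a minimum of 10 points, the arcsine scale, windows shifted by 250 bp, CpGs within 10 bp of an SNV left out, the replicate number as a block, and each animal left out. For regions they were CpGs with at least 10 reads in every F1 animal and the mean of CpGs.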

Additional observations from a re-analysis of the deposited data

Results flagged for a closer look

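In the downstream intron 14 region of Adcy1, B6C3F1 daughter 1 had 50.2% methylation, apart from the other 5 F1 daughters, of which the highest had 40.5%. The median of the 6 was 39.3%. The gap to the nearest daughter was 0.786 of the whole range, past Dixon's limit for 6 values. Of 36 sets of 6 animals examined this was the 1 set past the limit, and chance gives about 1 in 20. Without this daughter the difference between daughters and sons in the region was -9.86 points in place of -8.00.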

How the results depend on the processing

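Window counts over both genes were compared with the alternatives. Between dams and sires, the contrast that chose the genes, 10 windows were called, and 8 to 15 under every alternative, which is no sign of stability. Dams against daughters gave 5, but 3 with at least 100 reads and 10 with a minimum of 10 points. C3 against B6 gave 3, but 1 with at least 100 reads, 1 with shifted windows and 12 with a minimum of 10 points. Daughters against sons gave 0, but 1 with shifted windows and 3 with a minimum of 10 points. Sires against sons and the reciprocal crosses gave 0 throughout. Leaving out 1 animal gave 9 to 11, 5 and, for C3 against B6, 1 to 4 (1 without B6 dam 2). With the replicate number as a block the counts were 10, 5, 3 and 0. Same-numbered animals of other groups had deviations correlated at -0.0125 to 0.0649, and animals with other numbers at -0.0344 to 0.0232. These correlations cannot decide whether the numbers mark families, since animals of an inbred strain or of a cross share their genotype. For the regions, daughters minus sons ranged with 1 animal left out from -9.17 to -5.44 points in intron 11 of Adcy1, -7.01 to -3.97 at exon 14, -9.86 to -6.63 downstream in intron 14, and -5.45 to -3.46 at exon 2 of Angptl2. In intron 2 of Angptl2 the range was -0.58 to 1.71 and turned negative in 5 of 12 cases, against 0.34 with all animals. Without C3B6F1 daughter 3 exon 14 (-7.01) and exon 2 (-5.45) passed adjustment (exact permutation, adjusted p = 0.0433). Without any other single F1 animal no region did. With daughters and sons paired by number as a block, exact sign-flip tests gave adjusted p of 0.184 to 0.844. So few pairs, adjusted together with the tests of the crosses, allow no adjusted p below 0.05, so these tests decide nothing. Of 58 single windows and comparisons named, 57 stayed past an adjusted p of 0.05 in limma under the block, 57 with a pseudocount of 5 and 53 with CpGs near an SNV left out, where 1 lost it and 4 could not be refitted. All 58 were named because they had passed it with all animals. Many belong to the contrast that chose the genes or share its dams, so these counts are no sign of stability. With 1 animal left out the 58 stayed past an adjusted p of 0.05 in 1316 cases and lost it in 76, of which none reversed. In many of these cases the animal left out was in neither group compared, so the difference could not change. The 4 windows higher in daughters stayed past it in every alternative they could enter. The cause of the changes with shifted windows was not tested; fewer windows enter at 100 reads, and more can be called at 10 points.

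Depth was 18.8 to 37.7 reads per CpG at these genes, so levels of single CpGs are given only as sums over animals. With 3 animals per group no exact test within a group pair can go below 0.1. The F1 animals come from 3 families per cross, and the labels used here do not tie them to the sampled parents.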
